A study of Mus musculus with 4 samples.

Results

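The stretch of mouse chromosome 11 described here runs over 10 Mb around Trp53, from 64.4 to 74.4 Mb on the mm9 build. Its members are the genomic array probes that start in this window, leaving out 70.96 to 71.11 Mb, which holds Nlrp1b and Nlrp1c and 13 probes. They are 832 of the 170305 genomic probes of the array and were chosen by position alone. Of these, 606 carry a gene name from the array design, 169 names in all, of which 112 are current RefSeq symbols, 14 are older symbols and 43 had no match in the RefSeq table, which is of a later build and served for names only. The median spacing between neighbouring members was 9.89 kb, and the largest gap, 164 kb, is the stretch left out.

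Trp53 encodes p53, a transcription factor that halts the cell cycle or starts cell death when DNA is damaged, and its loss is among the most common events in cancer, liver cancer included. The gene lies in a part of mouse chromosome 11 that is dense in genes. Around it sit Wrap53, which shares its start region, Shbg, Eif4a1 and Fxr2, a row of myosin heavy chain genes, a group of lipoxygenases and the Nlrp1 inflammasome sensors. In array comparative genomic hybridisation, tumour and reference DNA compete for each probe, so a probe can read low or high because its target differs in copy number between the DNAs or because its target sequence differs between them.

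Genomic DNA of 4 liver tumours, each from a separate male mouse with liver-specific loss of Trp53 on a C57BL/6J background, was labelled with Cy5, and reference DNA with Cy3. The design text gives the reference as spleen DNA pooled from 3 littermates of the same sex, whereas the labelling protocol names liver. Both channels are labelled Trp53-/-, and neither the part of Trp53 deleted, the promoter or Cre used, nor the age of the mice is given; the mice were untreated. Whether 1 pool served all arrays is not given, so a difference shared by all 4 tumours and one carried by the reference cannot be told apart. Values are log2 ratios of tumour over reference, centred on the autosomal median of each array, so that 0 is the typical autosomal probe and a positive value means more signal from the tumour. All 832 members were well above background in both channels on all 4 arrays and 0 were saturated. The noise SD, taken between neighbouring probes, was 0.26, 0.32, 0.16 and 0.17 in tumours 1 to 4, against an SD of 0.070 to 0.11 between repeated spots of 1 probe. Tumours 1, 2 and 4 had like probe patterns and tumour 3 stood apart, across the autosomes as in the region. Over the members Pearson's r was 0.76 to 0.88 among tumours 1, 2 and 4 and 0.28 to 0.47 between tumour 3 and the others. Over all autosomal probes it was 0.69 to 0.84 and 0.094 to 0.32. The probes share a design, and tumours 1 and 4 share a slide.

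The probe sequences that the results turn on are printed 5′ to 3′ as the array files give them, in lower case with CG dinucleotides, the usual sites of cytosine methylation and frequent sites of base change in mammals, in capitals. Of 386 array probes that match a RefSeq promoter window on their own chromosome, 385 read on the plus strand and 1 on the minus strand, so the sequences are given as plus strand; positions are mm9. Both probes named Trp53, at chr11:69395366-69395425 and chr11:69404685-69404744, were:
Trp53, 69395366: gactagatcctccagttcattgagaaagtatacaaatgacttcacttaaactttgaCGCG
Trp53, 69404685: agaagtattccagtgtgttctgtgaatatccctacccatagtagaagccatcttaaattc
The only run of adjacent high probes spans 3 probes near the telomeric edge, at chr11:74184906-74184965, chr11:74192238-74192297 and chr11:74199274-74199333:
AK038834, 74184906: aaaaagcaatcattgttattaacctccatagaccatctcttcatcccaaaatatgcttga
AK038834, 74192238: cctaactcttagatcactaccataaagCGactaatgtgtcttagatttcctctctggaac
Garnl4, 74199274: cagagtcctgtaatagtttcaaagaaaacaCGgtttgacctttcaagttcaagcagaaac
Inside Gm879, the design's name for Shisa6, 3 low probes and 1 high probe lie in the order low, high, low and low, at chr11:66127638-66127697, chr11:66206015-66206074, chr11:66235562-66235621 and chr11:66310981-66311040:
Gm879, 66127638, low: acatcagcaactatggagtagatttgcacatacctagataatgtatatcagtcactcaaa
Gm879, 66206015, high: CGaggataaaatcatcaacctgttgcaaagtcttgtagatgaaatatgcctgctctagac
Gm879, 66235562, low: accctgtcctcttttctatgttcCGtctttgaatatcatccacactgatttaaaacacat
Gm879, 66310981, low: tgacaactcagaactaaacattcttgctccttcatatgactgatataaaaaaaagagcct
Among members, 274 (32.9%) hold at least 1 CG, against 35.7% of all genomic probes. The GC content of the members had a median of 36.7%, the same as that of all genomic probes.

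As a whole, the 10 Mb around Trp53 lay at the level of the autosomes. Over its 832 probes the mean log2 ratio of tumours 1 to 4 was 0.053, -0.027, -0.042 and -0.012. Tumour 1 alone was above 0, and the mean over tumours was -0.0069 ± 0.042 (SD, n = 4; two-sided exact sign-flip permutation p = 0.75, in a design whose smallest p is 0.13). Compared with the other 8149 probes of chromosome 11, the region differed by 0.019, 0.011, -0.0022 and 0.018, a mean difference of 0.012 ± 0.0099 (SD, n = 4; exact sign-flip p = 0.25). The side of Trp53 toward the centromere averaged -0.011 ± 0.043 and the side toward the telomere -0.0043 ± 0.039 (SD, n = 4). Neither side was set apart, with a difference of -0.0066 ± 0.010 (exact sign-flip p = 0.38).

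**Figure D1:**
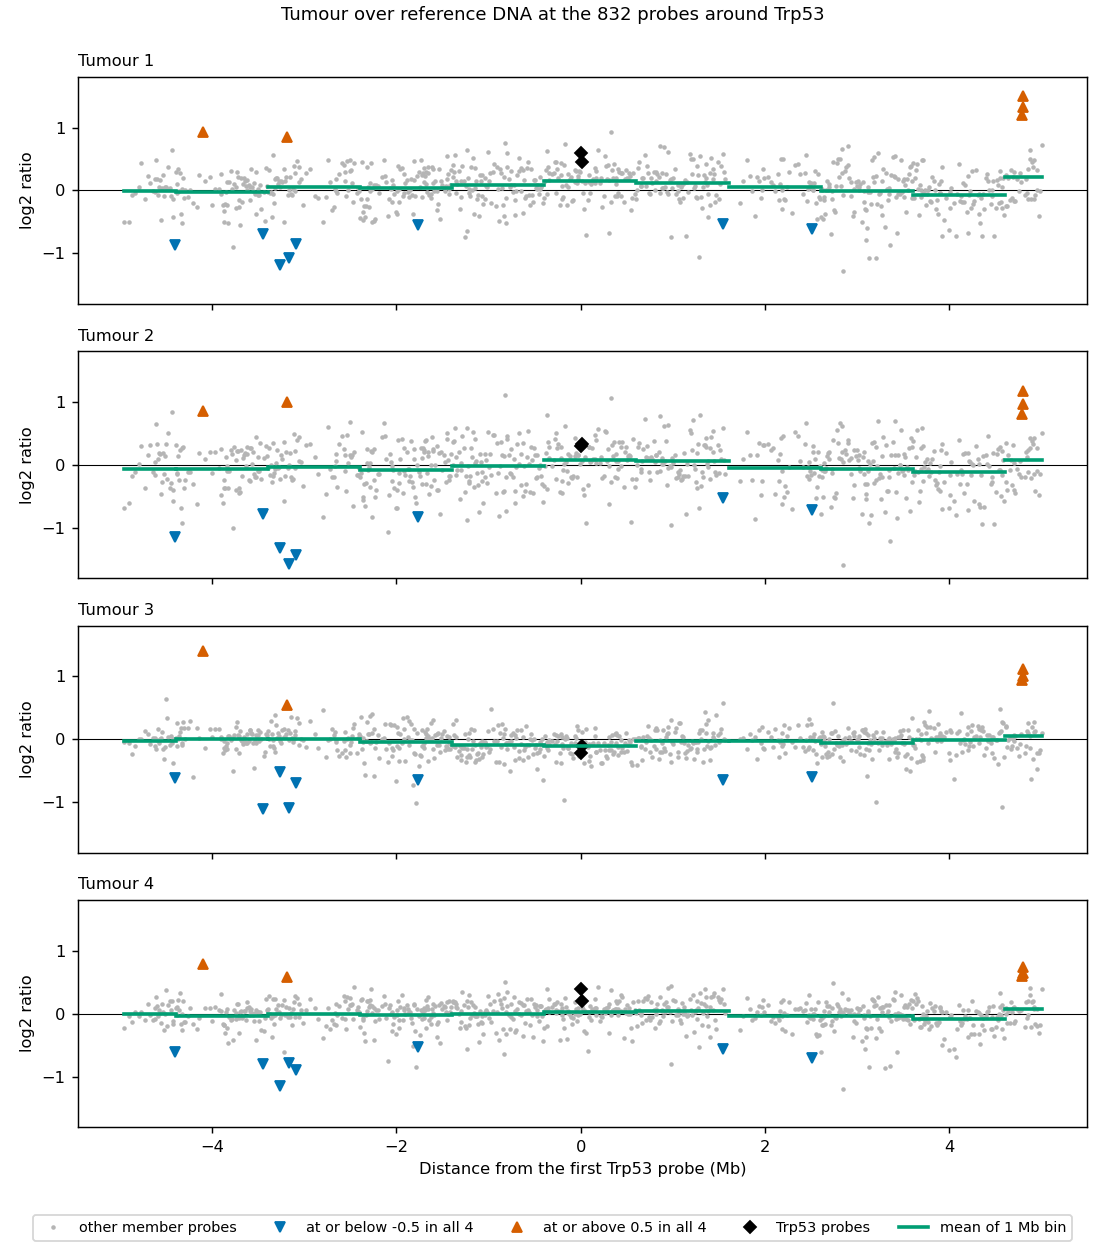
Log2 ratio of tumour over reference DNA (y axis) at the 832 probes against distance from the first Trp53 probe in Mb (x axis), 1 panel per tumour. Grey points are single probes, green lines are means of 1 Mb bins, blue and orange triangles are probes at or below -0.5 or at or above 0.5 in all 4 tumours, and black diamonds are the Trp53 probes; bin means stay between -0.12 and 0.22 in every panel.

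No segment of changed copy number reached the region in any tumour. Of the members, 0% lay in called segments (at least 5 probes with a mean of 0.2 or more from 0), while over the autosomes 13%, 8.6%, 0.226% and 0.167% of probes did in tumours 1 to 4. The segmentation did separate the run of 3 high probes in tumours 1 and 3, at means of 1.34 and 1.02, and a single unnamed probe at 65291937 in tumour 3, at 1.41. These are too short to be called under the rule of 5 probes. By 1 Mb bin, 0 of 11 bins passed limma at an adjusted p under 0.05, 0 lower and 0 higher, against 0.0393% of all bins called lower and 0% called higher; by unadjusted p under 0.05 there was 1 lower and 1 higher, against 8.45% and 3.18% of all bins. The bin from 73000001 to 74000000 was the lowest, at -0.064, -0.12, -0.0080 and -0.084 (adjusted p = 0.418). The bin from 74000001 to the region's edge was the highest, at 0.22, 0.081, 0.044 and 0.080 (adjusted p = 0.418), and it holds the run of 3 high probes. The bin around Trp53, from 69000001 to 70000000, read 0.16, 0.071, -0.11 and 0.029, above 0 in tumours 1, 2 and 4 and below 0 in tumour 3 (adjusted p = 0.705).

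Both Trp53 probes read above the reference in tumours 1, 2 and 4 and below it in tumour 3. The probe at 69395366 was at 0.60, 0.31, -0.21 and 0.39 in tumours 1 to 4, with a mean of 0.27 ± 0.34 (SD, n = 4; limma adjusted p = 0.20). The probe at 69404685, 9.32 kb further, was at 0.45, 0.33, -0.10 and 0.20, with a mean of 0.22 ± 0.24 (limma adjusted p = 0.192). In tumour 1 the first probe was above the 95th percentile of the members, 0.50, and in tumour 4 above that tumour's 0.28; in tumours 2 and 3 both probes lay between the 5th and 95th percentiles. As a pair they averaged 0.24 ± 0.29 (SD, n = 4; exact sign-flip p = 0.25; limma over all genes, adjusted p = 0.222), so the spread between tumours exceeded the mean. None of the 8 values reached -0.5. Under normexp background correction the first probe was at 0.032 (limma adjusted p = 0.88) and the second at 0.34 (adjusted p = 0.055). Without tumour 3, limma gave adjusted p-values of 0.022 and 0.034 for these probes (means of 0.43 and 0.32), when 22.4% of all probes passed. The pair averaged 0.23 after correction for probe GC content, which correlated with the members' ratios at 0.22, 0.18, -0.054 and 0.15 in tumours 1 to 4; its part in the pair's values beyond that correction was not tested. Since the deleted part of the gene is not given, and the reference carries the same genotype label, these probes do not check the genotype.

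**Figure D2:**
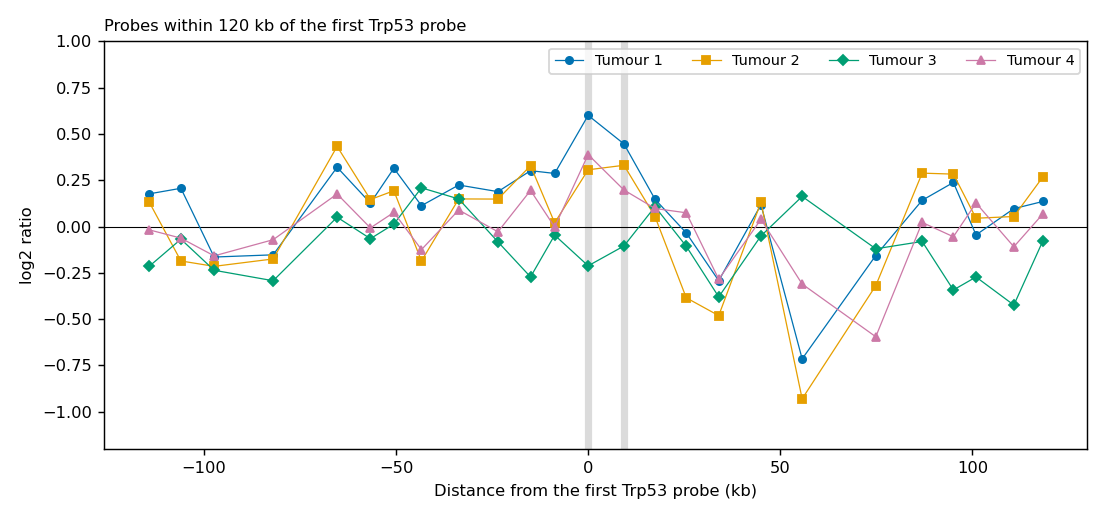
Log2 ratio (y axis) at each probe within 120 kb of the first Trp53 probe against distance in kb (x axis), with 1 line per tumour and grey bars at the Trp53 probes. Tumour 1 peaks at 0.60 on the first Trp53 probe, while tumour 3 reads -0.21 there, and the lowest point is Fxr2 in tumour 2 at -0.93.

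Genes next to Trp53 read on both sides of the reference. Wrap53, which encodes a telomerase and Cajal body protein, read 0.29, 0.17, -0.16 and 0.096 over 2 probes (mean 0.10 ± 0.19, adjusted p = 0.416), again with tumour 3 alone below 0. Kdm6b, a histone H3 lysine demethylase gene, had the widest spread of the named genes tested, from 0.57 in tumour 1 to -0.48 in tumour 3 (mean 0.10 ± 0.45, adjusted p = 0.70). Dnahc2, the axonemal dynein gene now called Dnah2, stayed near 0 over 13 probes (mean 0.0089 ± 0.068). Efnb3, an ephrin ligand gene with 1 probe, was at 0.057 ± 0.13. On the other side, Shbg, whose product binds sex steroids, was below 0 in all 4 tumours on its 1 probe, at -0.29, -0.48, -0.38 and -0.28 (mean -0.36 ± 0.092, limma adjusted p = 0.064). Fxr2, an RNA-binding protein gene, read -0.71, -0.93, 0.16 and -0.31 on 1 probe, with tumour 3 on the other side of 0. Mpdu1, needed for dolichol-linked sugar use, was at -0.30 ± 0.22 and Eif4a1, a translation initiation helicase, at 0.093 ± 0.16. AK084182, the design name nearest to Trp53 on the telomeric side, averaged 0.026 ± 0.10 over 26 probes (adjusted p = 0.746). AK079005, on the centromeric side, was at -0.14 ± 0.22 on 1 probe. Of the 188 probes within 1 Mb of the first Trp53 probe, 0 were at or below -0.5 in all 4 tumours, against 0.282% of all autosomal probes, and 0 at or above 0.5, against 0.0223%, so at these shares a count of 0 among 188 does not set this stretch apart. At a limit of 0.3, 4 of the 188 were low and 0 high, against 1% and 0.165% of autosomal probes.

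Single probes that read low or high in all 4 tumours were found further out. At or below -0.5 in all 4 tumours were 8 of 832 members (0.962%), against 0.282% of all autosomal probes; the rest of chromosome 11 had 61 of 8149 (0.749%) and the other autosomes together 0.246%. At or above 0.5 in all 4 were 5 members (0.601%), against 0.0223% of autosomal probes and 4 probes (0.0491%) of the rest of chromosome 11. The share of low probes was thus 0.962% in the region and 0.749% along the rest of the chromosome. That of high probes was 0.601% and 0.0491%, but 3 of the 5 high members form 1 run of adjacent probes. High probes with no high neighbour were 2 members (0.24%), against 4 (0.0491%) in the rest of chromosome 11 and 0.0138% on the other autosomes. These shares were not tested, since probes are not replicates. At a limit of 0.3 there were 22 low members (2.64%, background 1%) and 7 high ones (0.841%, background 0.165%). At 0.7 there was 1 low member (0.12%, background 0.167%) and 2 high ones (0.24%, background 0.00805%). The rest of chromosome 11 had 1.84% low probes at 0.3 and 0.466% at 0.7. The low share of the region was thus above that of the rest of its chromosome at 0.3 and 0.5, and below it at 0.7. Without tumour 3 the limit of 0.5 gave 19 low members (background 1.36%) and 5 high ones (background 0.0657%). Members with 1 sign in all 4 tumours numbered 308 (37%), against 35.7% of autosomal probes.

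The low probes lay apart from one another and the high ones partly together. None of the 8 low probes had a low probe as its neighbour, whereas 3 of the 5 high probes formed 1 run. From the first to the last, 7 of the 13 probes lay between 4.40 and 3.08 Mb from the first Trp53 probe on the centromeric side. Next came Dhrs7c at 1.77 Mb on the same side, and then a stretch of 3.31 Mb with 317 members, Trp53 among them, had no such probe. Nlrp1a followed at 1.54 Mb and Pitpnm3 at 2.51 Mb on the telomeric side, and the run of 3 near 4.80 Mb. Just inside the low limit was Gm879 at 66127638, whose least low tumour was at -0.52, and just outside it Dhrs7c at 67612842, at -0.48. Just inside the high limit was Gm879 at 66206015, whose least high tumour was at 0.54, and just outside it an unnamed probe at 72138224, at 0.39.

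**Figure D3:**
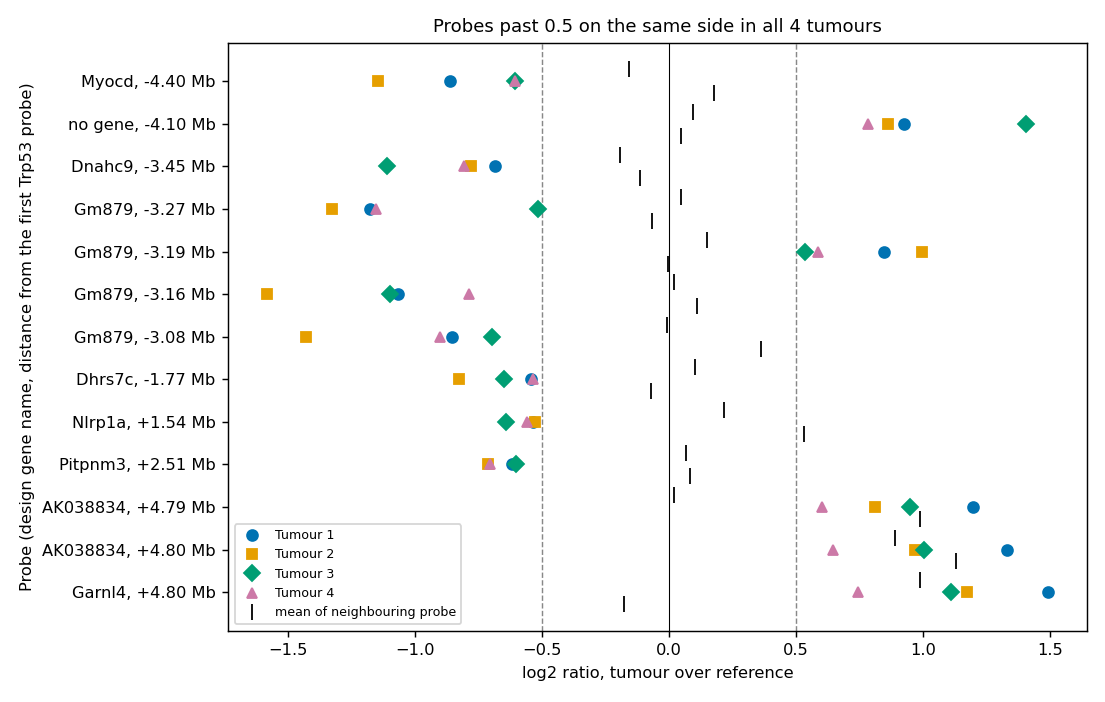
The 13 probes past 0.5 on 1 side in all 4 tumours (y axis, by design gene name and distance from the first Trp53 probe) and their log2 ratio in each tumour (x axis, coloured symbols); black ticks are the means of the probes on either side, and dashed lines mark -0.5 and 0.5. The 8 low probes lie between -1.58 and -0.52 and the 5 high ones between 0.54 and 1.49, while most neighbouring probes lie near 0.

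Shisa6 (Gm879 in the design), whose product is an accessory protein of AMPA-type glutamate receptors, held 4 of the 13 probes within 183 kb. Its probe at 66127638 read -1.18, -1.33, -0.52 and -1.15 in tumours 1 to 4. Its probe at 66235562 read -1.07, -1.58, -1.10 and -0.79, a mean of -1.13 ± 0.33 (SD, n = 4; limma adjusted p = 0.014), or 2.19-fold less signal than the reference and the lowest mean of the 13. On that probe the tumour signal in tumour 1 was 630 against 1346 for the reference, and in tumour 2 it was 480 against 1430. The probe at 66310981 read -0.85, -1.43, -0.70 and -0.90. Between the low ones, the probe at 66206015 read 0.84, 1.00, 0.54 and 0.59, so low and high probes of the same gene lay 29.5 kb apart. The other 30 probes of the gene averaged 0.050 ± 0.040 (SD, n = 4), and the gene mean over all 34 probes was -0.026 ± 0.050 (adjusted p = 0.664).

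The run of 3 high probes averaged 1.34, 0.98, 1.02 and 0.66 in tumours 1 to 4, a mean of 1.00 ± 0.28 (SD, n = 4). This is 2.0-fold the reference signal over 14.4 kb, with 1.58-fold in tumour 4 and 2.53-fold in tumour 1. The last of the 3, named Garnl4 (now Rap1gap2, a GTPase-activating protein gene for Rap1), had the highest mean of all members, 1.13 ± 0.31 (limma adjusted p = 0.011). The probe on the centromeric side, 7.34 kb before the first of them, read 0.13, -0.19, 0.077 and 0.051, and that on the telomeric side, 16.0 kb after the last, -0.079, -0.20, -0.22 and -0.21. The higher signal therefore ended within 37.6 kb, the distance between these flanking probes. The first 2 probes carry the design name AK038834, a transcript with no current symbol in the RefSeq table. Without those 3 probes, AK038834 averaged -0.015 ± 0.043 over 23 probes and Garnl4 0.054 ± 0.096 over 18.

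**Figure D4:**
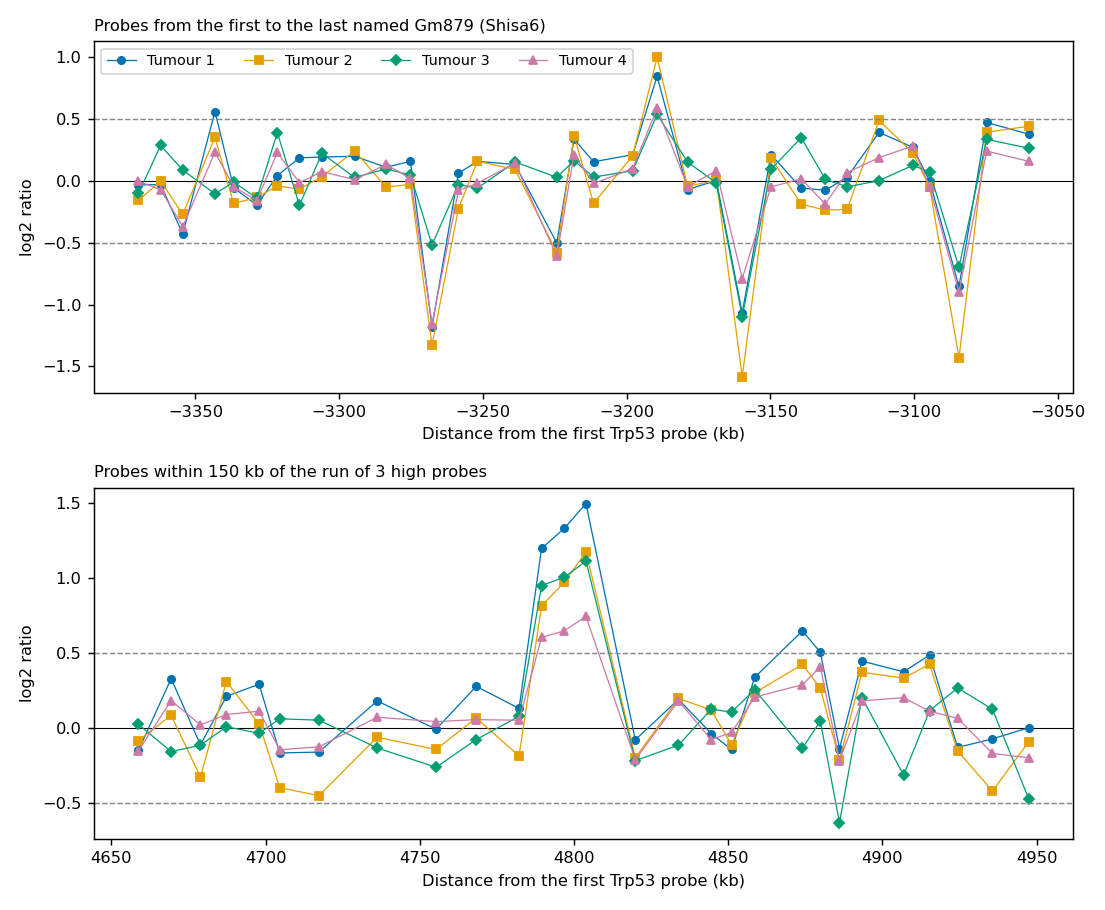
Log2 ratio (y axis) of each tumour against distance from the first Trp53 probe in kb (x axis), above for the probes from the first to the last named Gm879 and below for those within 150 kb of the run of 3 high probes; dashed lines mark -0.5 and 0.5. Above, 3 single probes read low and 1 high in all tumours, with the means of their neighbouring probes between -0.068 and 0.36; below, 3 adjacent probes stand between 0.60 and 1.49 in the 4 tumours.

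The remaining 6 probes had no neighbour past the same limit. In Myocd, which encodes the smooth and cardiac muscle coactivator myocardin, the probe at 64995552 read -0.86, -1.15, -0.61 and -0.61, while the next probe of the gene, 9.35 kb on, averaged 0.18. In Dnahc9, the dynein gene now called Dnah9, the probe at 65943208 read -0.69, -0.78, -1.11 and -0.81, with its other 32 probes at -0.016 ± 0.011. The unnamed high probe at 65291937 read 0.92, 0.86, 1.41 and 0.78, and its neighbours averaged 0.093 and 0.048. In Dhrs7c, a dehydrogenase/reductase gene of muscle, the probe at 67627161 read -0.55, -0.83, -0.65 and -0.54. Nlrp1a, an inflammasome sensor gene next to the stretch left out, had a low probe at 70935403 with a narrow spread, at -0.54, -0.53, -0.64 and -0.56. In Pitpnm3, a phosphatidylinositol transfer gene, the probe at 71908903 was as narrow, at -0.62, -0.71, -0.60 and -0.71 (limma adjusted p = 0.010). Of the 4 tumours, tumour 3 read lowest at this Nlrp1a probe and least low at this Pitpnm3 probe. Of the 8 low probes 3 hold a CG and of the 5 high ones 3 do.

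Across the whole array, limma called 0.649% of 170269 probes lower and 0.0781% higher at an adjusted p under 0.05. Of the members, 13 were lower and 7 higher, 20 in all, with adjusted p-values from 0.010 to 0.048; by unadjusted p under 0.05 there were 135 lower (16.2%, against 15.0% of all probes) and 129 higher (15.5%, against 13.8%). These 20 include all 13 probes described above, which were picked on the same ratios, so the overlap is no independent support. The other 7 were an unnamed probe at 65619268 (-0.71 ± 0.29), Myh4 at 67055221 (-0.52 ± 0.11), a further Dhrs7c probe at 67612842 (-0.74 ± 0.24), Myh10 at 68561627 (-0.46 ± 0.12), BC048402 at 70373086 (-0.72 ± 0.25), an unnamed probe at 72138224 (0.47 ± 0.075) and a further Nlrp1a probe. That probe, at 70945389, is the direct neighbour of the low one in Nlrp1a and read 0.57, 0.59, 0.57 and 0.39 (adjusted p = 0.030), so within 9.99 kb one probe of the gene read lower and the next higher in all 4 tumours. The count of 20 changed with the tumours fitted. It was 0 without tumour 2, 4 without tumour 4, 15 without tumour 1 and 206 without tumour 3. Those fits called 0.0799%, 0.109%, 0.45% and 22.4% of all probes, and the means of the 20 probes kept their signs in them. Under normexp background correction the count was 237, when 23.9% of all probes passed.

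Set along chromosome 11, the region was not the place with the most low probes. The 10 Mb window next to it on the centromeric side held 16 low probes of 793 (2.02%) and 1 high one, and the window on the telomeric side 11 of 933 (1.18%) and 0 high ones. Of those 11 low probes 7 had no low neighbour (0.75%), against 8 (0.962%) in the region. The window after that, from 84400000, held 8 low probes of 717 (1.12%). Windows at either end of the chromosome held 1 of 616 (0.162%) and 3 of 691 (0.434%). Chromosome 11 as a whole had 69 low probes (0.768%), the highest share of the 19 autosomes, of which chromosome 9 came next at 0.355%. Most were single: 57 of the 61 in the rest of chromosome 11 had no low neighbour. The 5 high probes, 3 of them in 1 run, were the most of any window of chromosome 11. Among 232 windows of 10 Mb, laid from the start of each autosome, with at least 400 probes and no overlap with the region, 2 held at least 8 low probes, both on chromosome 11, 1 held at least 5 high ones, and 0 held both. These are counts and not shares, and many of the windows hold fewer probes than the 832 of the region. The chromosome 10 window from 20000001, for example, had 4 high probes of 666, none next to another high one. Whether the low and high probes are DNA of another mouse strain, carried along with the engineered allele, was not tested.

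**Figure D5:**
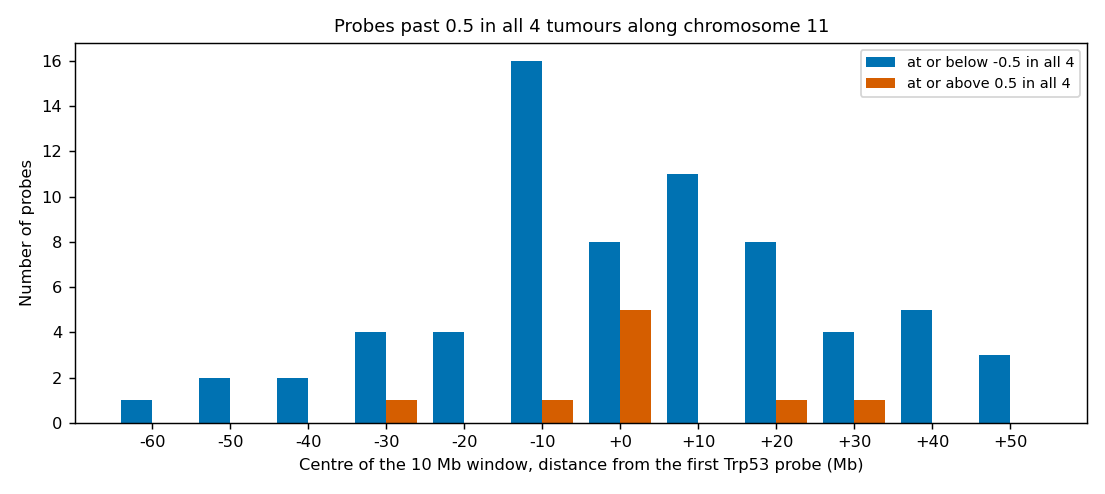
Number of probes (y axis) at or below -0.5 (blue) or at or above 0.5 (orange) in all 4 tumours in each 10 Mb window of chromosome 11, by the distance of the window's centre from the first Trp53 probe in Mb (x axis). The window around Trp53 holds 8 low and 5 high probes, and the window before it 16 low and 1 high.

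Averaged by gene, nothing in the region passed the test. Of 84 genes with at least 2 probes, limma called 0 lower (0.132% of all 12873 genes were) and 0 higher (0.00777%); by unadjusted p under 0.05 there were 13 lower (15.5%, against 16.3% of all genes) and 8 higher (9.52%, against 8.72%). The median of the gene means was -0.0024, against -0.0059 over all genes tested. Dhrs7c was lowest among genes of 1 sign in all tumours, at -0.27, -0.48, -0.52 and -0.44 (mean -0.43 ± 0.11, adjusted p = 0.066), a mean over 3 probes, at -0.74, 0.10 and -0.64. Under normexp correction 4 genes of the region passed, when 3.77% of all genes did, among them Dhrs7c at -0.58 (adjusted p = 0.038) and Myh4 at -0.38 (adjusted p = 0.038). Kif1c, a kinesin motor gene, had a mean of -0.17 ± 0.073 over 3 probes (adjusted p = 0.133). Among the genes above 0 in all tumours were Spns2, which encodes a sphingosine-1-phosphate transporter (0.23 ± 0.21, adjusted p = 0.173), Mink1, a kinase gene (0.13 ± 0.067, adjusted p = 0.155), 1200014J11Rik, now Ncbp3 (0.085 ± 0.048), and Usp43, a ubiquitin protease gene (0.074 ± 0.075).

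Of 26 listed tumour and cell cycle genes of the region 22 were measured, 12 could be tested and 0 passed in either direction. Their median mean was 0.077, and 14 of the 22 means were above 0. Over all genes of the region with at least 1 probe the median was -0.00078, with 84 of 169 above 0. By unadjusted limma p under 0.05, 2 of the 12 were called, Map2k4 and Pik3r5, both lower. Over all genes tested 16.3% were lower by that p. Map2k4, a kinase upstream of JNK that is lost in some cancers, was below 0 in all 4 tumours over 9 probes, at -0.20, -0.23, -0.088 and -0.16 (mean -0.17 ± 0.060, adjusted p = 0.124). Pik3r5, a regulatory subunit gene of PI3K gamma, was at -0.14 ± 0.095 over 6 probes. Aurkb, the mitotic kinase Aurora B, read 0.33, 0.29, 0.075 and 0.22 on 1 probe, and Zbtb4, a zinc finger gene, was highest in the list at 0.39 ± 0.32 on 1 probe, with tumour 3 at -0.058. Tumour 3 read lowest of the 4 at Zbtb4 and Aurkb, as at Trp53 and at many other genes of the list, among them Wrap53, Kdm6b and Tnk1. It was not lowest at Map2k4, Myocd or Elac2. The 1 Mb bin around Trp53 was likewise lowest in tumour 3, at -0.11.

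The 7 myosin heavy chain genes, which encode the motor proteins of muscle fibres and, in Myh10, a non-muscle form, were all measured, and 0 passed. Myh4, the fast IIb form, was lowest, at -0.33, -0.47, -0.30 and -0.24 over 2 probes (mean -0.34 ± 0.10, adjusted p = 0.10), and Myh3, the embryonic form, highest at 0.20 ± 0.16. Myh13 was below 0 in all 4 tumours (-0.17 ± 0.053, adjusted p = 0.120), and Myh10 averaged -0.0053 ± 0.065 over 14 probes although 1 of them passed the probe test. Of the 7 means 5 were below 0, where of all 12873 genes tested 6126 had means above 0. Of the 3 genes with an unadjusted limma p under 0.05, Myh4 and Myh13 were lower and Myh3 higher. Over all genes tested, 16.3% were lower and 8.72% higher by that p.

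In the other groups 0 genes passed, of the few with at least 2 probes that could be tested: 1 lipoxygenase, 1 liver gene, 5 channels and receptors, 4 cilium and dynein genes, 1 olfactory receptor name and 5 genes beside the stretch left out. Of 6 lipoxygenase genes, which make lipid mediators, 5 were measured and all had means below 0, from -0.24 (Alox8) to -0.016 (Aloxe3). Of all 20791 genes with at least 1 probe, 10389 had means above 0. Among the 5, Alox8 alone was below 0 in all 4 tumours, and each but Aloxe3 rests on 1 probe. The list headed liver genes, which also holds Mgl2, a lectin gene of macrophages, gave 7 of 12. It ran from Mgl2 at -0.46 ± 0.31 to Slc2a4, the GLUT4 glucose transporter, at 0.16 ± 0.29. Asgr2, a hepatocyte asialoglycoprotein receptor subunit, was at 0.050 ± 0.13, and each of these named genes rests on 1 probe. Channels and receptors gave 7 of 10, from P2rx1, an ATP-gated channel, at -0.40 ± 0.18 over 2 probes (adjusted p = 0.109) to Atp2a3, a calcium pump, at 0.26 ± 0.19 (adjusted p = 0.15). Cilium and dynein genes gave 5 of 7, between -0.12 and 0.17, and both olfactory receptor names were below 0, at -0.16 and -0.0099. Genes beside the stretch left out gave 9 of 10, from C1qbp at -0.29 ± 0.072 to Mis12 at 0.30 ± 0.20, and Rabep1, a RAB5 effector gene with 10 probes, was at 0.022 ± 0.025. Nlrp1a, the nearest of them, averaged 0.079 ± 0.061 over 6 probes (adjusted p = 0.258).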

How the data were processed

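Array comparative genomic hybridisation was done on 4 liver tumours, 1 array each, all of 1 group. The deposited scanner files hold, per the file headers, log10 ratios of red (Cy5, tumour) over green (Cy3, reference) after background subtraction and dye normalization, and processed signals as intensity; flags mark spots that are outliers, saturated or well above background. The submitters' processing notes name Agilent Feature Extraction 10.7.3.1. Positions are mm9 (NCBI 37). The deposited value table, also log10, matched within 0.005 on all spots; its column medians were -0.0011, 0.0018, 0.00056 and 0.0032. Names follow the array design; the mm9 exons and introns were not used here.

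Ratios were turned to log2, outlier and control spots left out, spots of 1 probe averaged and each array centred on its autosomal median. Probes, 1 Mb bins (at least 5 probes) and genes (at least 2) were fitted over the whole array with limma 3.58.1 in R 4.3.3, testing the intercept against 0 with Benjamini-Hochberg adjustment. Such a test leaves out the spread of the reference, and with 1 array per tumour the number of arrays sets the precision. Segments came from exact penalised least squares (penalty 4). Genes named were Trp53, its 5 nearest on each side, those with a probe past limma or past 0.5 in all tumours, and the 5 lowest and 5 highest genes of at least 3 probes with 1 sign in all tumours. Members of the lists were named as ends of a range; Aurkb, Pik3r5, Asgr2, Rabep1 and Myh13 are examples chosen after their values were seen. The members, lists and rules were chosen with earlier results of these data known. The files' slide code puts tumours 1 and 4 on 1 slide, so the slide was a random block in an alternative; its correlation was estimated by a restricted likelihood coded for this work. Alternatives were normexp (offset 50), the value table, outlier spots kept, only spots well above background, centring on the mode, GC correction by lowess (fraction 0.3), each tumour left out, and other windows, thresholds, bins and penalties. Scripts were tested on simulated data.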

Additional observations from a re-analysis of the deposited data

Results flagged for a closer look

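In 4 of 71 sets of 4 tumour values, 1 tumour lay far from the other 3; by chance about 1 set in 20 would. The mean of the rest of chromosome 11 was 0.033 in tumour 1 and between -0.040 and -0.030 in the others. The bin from 71000001 was 0.058 in tumour 1, against -0.043 to -0.028. The Myh10 probe at 68561627 was -0.64 in tumour 4, against -0.41 to -0.40. The Nlrp1a probe at 70945389 was 0.39 in tumour 4, against 0.57 to 0.59.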

How the results depend on the processing

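The region mean was within 0.063 of 0 under all alternatives. Its sign turned with normexp (0.0052), over 4 Mb centred on Trp53 (0.019) and with the median over probes (0.013); leaving out 1 tumour gave -0.027 to 0.0047. The difference from the rest of chromosome 11 turned to -0.045 with the Nlrp1b and Nlrp1c stretch kept, and was 0.0090 to 0.016 with 1 tumour left out. The Trp53 pair kept its sign, at 0.15 to 0.38 with 1 tumour left out and 0.19 with normexp, under which its first probe was at 0.032. Members past limma were 237 with normexp and 0 to 206 with 1 tumour left out; genes past it were 4 with normexp, where the other settings gave 0. Low probes were 22 at 0.3, 1 at 0.7 and 8 to 19 with 1 tumour left out; high probes were 2 at 0.7 and 5 to 6 with 1 left out. The share of members in called segments, as a mean over the 4 tumours, was 0.541% at a threshold of 0.1 and 0.30% at penalty 2. The first came from tumour 1 alone, at 2.16%, and the second from tumour 3 alone, at 1.2%. Among named genes, Dnahc2 turned to -0.019 (normexp) and -0.015 (mode), and Myh10 to 0.043 (normexp). With 1 tumour left out Dnahc2 ran from -0.023 to 0.029, Kdm6b from -0.050 to 0.30 and AK084182 from -0.0070 to 0.073, below 0 without tumour 1, and Myh10 from -0.032 to 0.021, above 0 without tumour 3. The cause was not tested. Of 20 probes past limma, 20 no longer passed without tumour 2, 16 without tumour 4, 6 without tumour 1 and 2 with centring on the mode; 0 turned sign. With the slide as a random block 20 members and 0 genes passed. No paired analysis was possible because there is 1 group.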
